A study of Homo sapiens with 16 samples.

Results

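The genes described here are 10 genes of the nuclear receptor family, NR2F2, NR2F1, PPARG, PPARD, VDR, RXRA, RARB, NR4A1, NR3C1 and NR1D1. They stand among 62700 annotated genes, of which 20046 encode proteins. They were studied through the regions of H3K27ac that changed when LX-2 cells were treated with an inhibitor of O-GlcNAc transferase (OGT). H3K27ac is an acetylation of histone H3 found at active promoters and enhancers. LX-2 is an established human line of hepatic stellate cells, and it was grown with 5% fetal bovine serum in both arms. Control cells received the vehicle (DMSO), and treated cells received the OGT inhibitor OSMI-1 (OGTi) at 50 µM for 24 h, with 4 H3K27ac ChIP-seq libraries per arm of 16 libraries in all. The lists give 3507 regions with lost and 3623 regions with gained H3K27ac as positions on hg38. They hold no signal, fold change or replicate value, so no size of change, error or depth can be given for any region, and no level of a stellate cell marker could be read to check the cell label.

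The genes were chosen by their place in the receptor family with results of these lists in view, and NR2F2 was picked for its run of gained regions, so the counts below describe the loci and test nothing. A region was given to a gene when any of its bases lay in the gene body or within 100 kb of the 5′ end of the gene record (GENCODE release 44). By this rule 30 of the 7130 regions lay at the 10 genes, 27 of them gained and 3 lost, and no region was shared by 2 of the genes. Since the cells were profiled in bulk, a change in the share of cells that carry the mark and a change in its amount per cell cannot be told apart.

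Nuclear receptors are transcription factors with a zinc finger domain that reads short DNA hexamers and a ligand pocket that recruits coactivators or corepressors, many of them histone acetyltransferases and deacetylases. In the liver, stellate cells store retinoids as long as they are quiescent, and several receptors bound by retinoids, vitamin D or fatty acids are known for their influence on the switch to the myofibroblastic state. Some family members, among them NR2F1 and NR2F2, have no established physiological ligand and are called orphan receptors.

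Gained regions outnumbered lost ones at these genes. A gained region was found at 8 of the 10 genes, compared with 30.5% of all protein-coding genes, and a lost region at 3 of them (NR2F2, PPARD and NR3C1), compared with 21.6%. All 3 genes with a lost region also had a gained one, a combination seen at 7.2% of protein-coding genes. PPARG and RARB had no listed region, as was the case for 55.1% of protein-coding genes. Of the 27 gained regions, 17 belonged to NR2F2 alone, and the other 9 genes shared 10. The median was 1 gained region per gene, against 0 over all protein-coding genes, and 6 of the 10 genes had exactly 1. The windows searched had a median length of 200.8 kb, and reached 1010 kb for RARB because its gene record is long. Within 2500 bp of the 5′ end, 3 genes (NR2F2, NR2F1 and NR1D1) had a gained region, against 6.39% of protein-coding genes, and none had a lost one, against 2.02%.

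**Figure D1:**
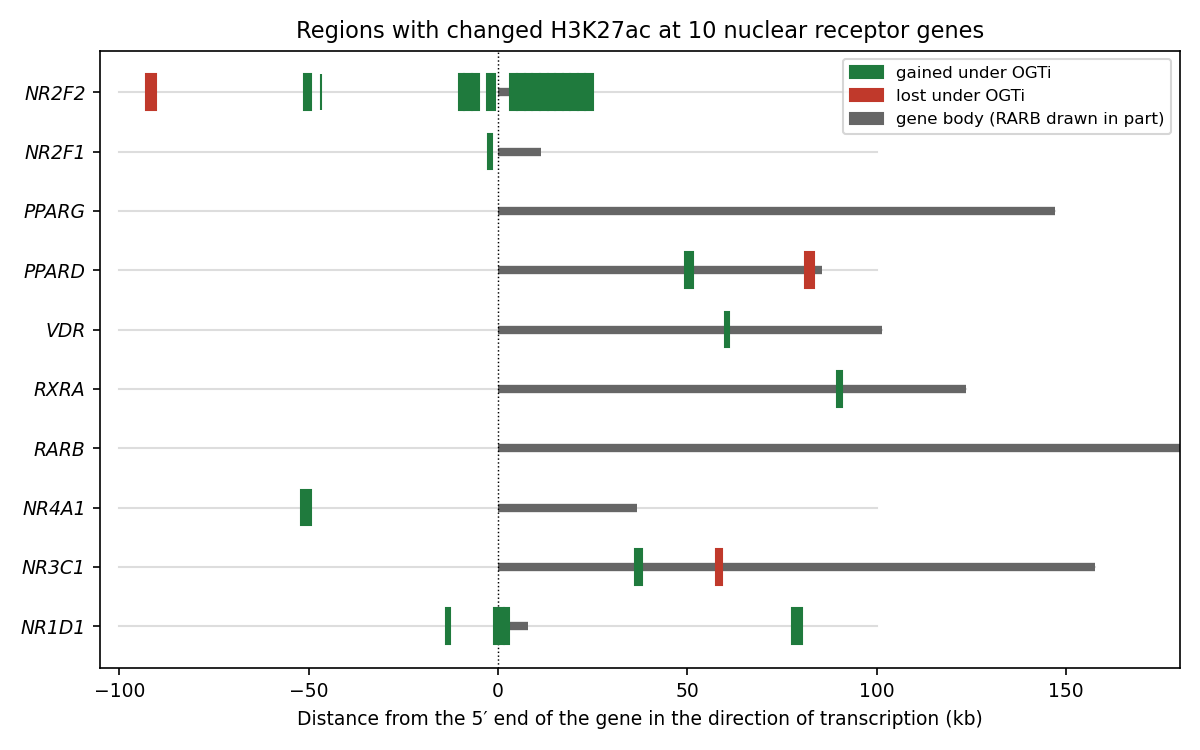
Each row is one of the 10 genes, aligned at its 5′ end and oriented in the direction of transcription, with the distance in kb on the horizontal axis. Green blocks are gained and red blocks lost regions, grey bars are gene bodies and the thin lines show the search window. NR2F2 holds 17 of the 27 gained regions, and PPARG and RARB hold no region.

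NR2F2 encodes COUP-TFII, an orphan receptor known for its part in mesenchymal, venous and atrial development. The gene (ENSG00000185551.15, chr15:96325938-96340263, plus strand) lies far from other protein-coding genes, since MCTP2 ended 1791 kb before and ARRDC4 began 1610 kb after its gained regions. The 17 gained regions spanned 76.3 kb and covered 31.7 kb of it. No other protein-coding gene had as many gained regions in its window, and VEPH1 followed with 16. Only 13 protein-coding genes had 10 or more.

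**Figure D2:**
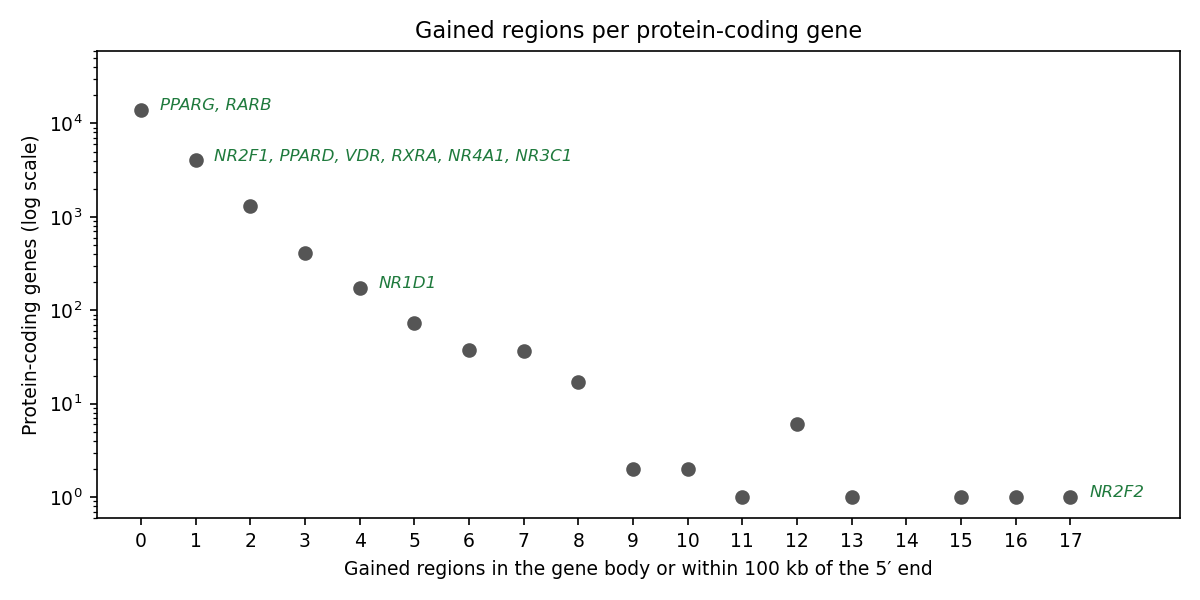
The number of protein-coding genes (vertical axis, log scale) is plotted against the number of gained regions in the gene body or within 100 kb of the 5′ end (horizontal axis), with the names of the 10 receptor genes beside the points they belong to. A single gene, NR2F2, stands at 17, NR1D1 at 4, and the other 8 genes at 0 or 1.

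Joined where they abut, the 17 regions of NR2F2 formed 5 blocks. The first 2 blocks lay far upstream, at chr15:96274690-96276689 and chr15:96279133-96279332, and ended 49.2 and 46.6 kb before the 5′ end. The first of them covers exon sequence of NR2F2-AS1, a long non-coding RNA gene (ENSG00000247809.11) read from the minus strand. NR2F2-AS1 begins inside the NR2F2 gene record and extends upstream of it. The third block, chr15:96315564-96321021, joined 3 regions into 5.46 kb in the body of NR2F2-AS1. The fourth, chr15:96323022-96325021, ended 917 bp before the 5′ end of NR2F2. The fifth block was chr15:96329022-96351021. It joined 11 regions into 22000 bp and ran from 3084 bp past the 5′ end to beyond the 3′ end of the gene. This was the widest of 3210 gained blocks, whose median was 1670 bp, and the next reached 12.5 kb. The widest of 3057 lost blocks measured 10.5 kb.

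The gained blocks covered 78.5% of the NR2F2 gene body (11242 of 14326 bp) but not its outermost start. Of the 17 regions, 6 lay upstream of the gene, 6 overlapped it and 5 lay downstream. Exon sequence of NR2F2 was contained in 5 of the 6 that overlapped it. All 6 upstream regions were centred in the body of NR2F2-AS1. The downstream region chr15:96343022-96345021 contained exon sequence of another annotated gene, ENSG00000275322, which is not protein-coding. Between the fourth and the fifth block was an unlisted gap of 4000 bp, chr15:96325022-96329021. It contained the first of the 5 annotated transcript starts of NR2F2 and the 5′ ends of 15 of the 23 transcripts of NR2F2-AS1, which lay at 96326995 to 96327361. The other 4 starts of NR2F2, among them that of the canonical transcript at 96330700, lay inside the fifth block. An unlisted position can be one that did not pass the threshold or one outside the peaks, and the lists do not tell these apart.

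The sequences before the 2 starts are shown because they differ in whether a listed region covers them. Both are the 250 bases before the start, read 5′ to 3′ on the plus strand of hg38, with each CG dinucleotide in capitals.
NR2F2, canonical start, chr15:96330450-96330699, inside a gained region: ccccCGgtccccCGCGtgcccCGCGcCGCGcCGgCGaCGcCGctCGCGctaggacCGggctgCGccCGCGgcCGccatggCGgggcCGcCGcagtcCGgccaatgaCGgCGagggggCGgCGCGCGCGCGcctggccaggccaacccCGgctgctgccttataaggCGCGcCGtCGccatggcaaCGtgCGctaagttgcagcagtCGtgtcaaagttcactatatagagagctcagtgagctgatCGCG
NR2F2, first start, chr15:96325688-96325937, in the unlisted gap: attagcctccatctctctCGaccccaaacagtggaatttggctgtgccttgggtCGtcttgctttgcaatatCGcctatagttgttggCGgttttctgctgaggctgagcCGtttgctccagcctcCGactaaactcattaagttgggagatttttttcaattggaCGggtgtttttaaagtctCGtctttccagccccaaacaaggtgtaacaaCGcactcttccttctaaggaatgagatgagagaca
The covered sequence held 40 CG dinucleotides with a GC content of 73.6%, and the uncovered one held 9 with a GC content of 46.8%. The microRNA gene MIR1469 also lies in the fifth block (chr15:96333261-96333282 for the mature form, GRCh38.p14). Its mature sequence from RefSeq is shown because it is the only annotated microRNA in the block, with the seed (bases 2 to 8) in capitals.
hsa-miR-1469: cUCGGCGCggggcgcgggcucc

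Base composition changed along the locus. The CpG observed/expected ratio (the number of CG dinucleotides relative to that expected from C and G content) was 0.834 and 0.851 in the first 2 regions of the fifth block, around the canonical start. It fell to 0.226 in the intronic region chr15:96335022-96337021 and stood at 0.562, 0.623, 0.583 and 0.511 in the 4 regions from 13.1 to 21.1 kb past the 5′ end. Each of these 4 regions lay within 2500 bp of an annotated start of ENSG00000275322. The last region of the block had 0.169. In the first 3 blocks the ratio lay between 0.142 and 0.237. Over the 17 regions the median was 0.418, compared with 0.247 in all gained regions and 0.202 in all lost regions. The GC content ranged from 34.3% to 63.7%, with a median of 45.2% against 46.1% in all gained regions. Thus the gained domain spanned both CpG-rich and CpG-poor sequence.

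**Figure D3:**
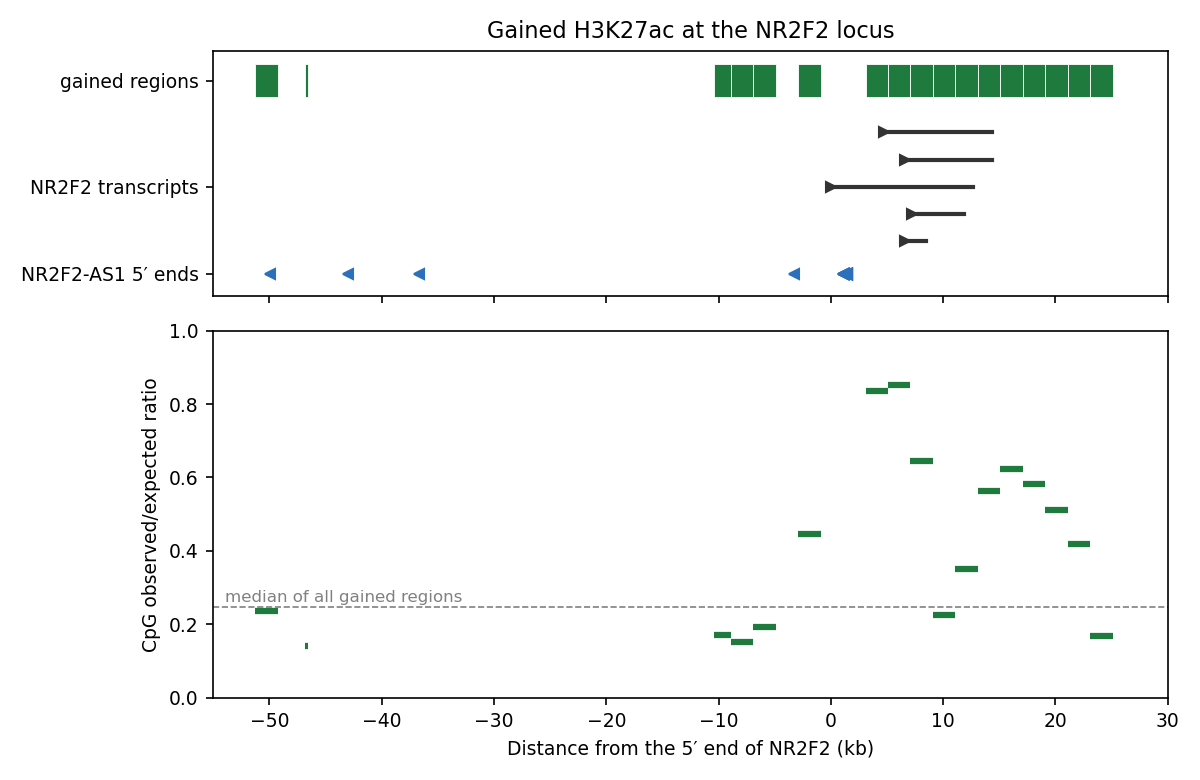
The upper panel shows the 17 gained regions (green), the 5 transcripts of NR2F2 (black, with the start as a triangle) and 5′ ends of NR2F2-AS1 transcripts (blue triangles), against the distance from the 5′ end of NR2F2 in kb. The lower panel gives the CpG observed/expected ratio of each region, with the median of all gained regions as a dashed line at 0.247. The ratio is highest, at 0.834 and 0.851, in the first 2 regions of the block of 22000 bp.

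Lost regions lay on both sides of the gained domain at NR2F2. The nearest on the left, chr15:96233086-96235736, was inside the search window, 90.2 kb before the 5′ end and 38.95 kb from the first gained region. It also lay within 2500 bp of annotated starts of NR2F2-AS1 and LINC02157. The nearest on the right, chr15:96427972-96429567, was 102.0 kb past the 5′ end and so just outside the window, but within 100 kb of the canonical start. No other gained region lay within 801.2 kb of the 5′ end.

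NR2F1 (ENSG00000175745.15, chr5:93583222-93594611, plus strand) encodes COUP-TFI, the closest relative of COUP-TFII, which acts in neural and mesenchymal development. Its window held 1 gained region, chr5:93580526-93581548, which ended 1674 bp before the 5′ end, in a part of the divergent gene NR2F1-AS1. With a CpG ratio of 0.916 and a GC content of 57.0%, it was the most CpG-rich of the 30 regions. The next gained region on the chromosome was 509.3 kb away from the 5′ end, and the nearest lost region 2466 kb. Both COUP-TF genes therefore had a gained region within 2500 bp of the 5′ end, but a wide domain was seen at NR2F2 only.

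NR1D1 (ENSG00000126368.6, chr17:40092793-40100589, minus strand) encodes REV-ERBα, a heme-binding repressor of the circadian clock. It had 4 gained regions and no lost one, and 180 protein-coding genes had more gained regions. The abutting regions chr17:40098997-40101651 and chr17:40097708-40098996 covered the 5′ end and the first part of the gene, with CpG ratios of 0.560 and 0.127. The third, chr17:40113244-40114232, lay 12.7 kb upstream, where the 5′ end of MSL1 was closer (7.74 kb). The fourth, chr17:40020340-40022866, lay 77.7 kb from the 5′ end in the body of MED24 and 4.98 kb from the 5′ end of CSF3. All 4 regions also fell in the window of THRA, the thyroid hormone receptor gene that overlaps the end of NR1D1 on the other strand, and none lay in the body of THRA. The promoter of NR1D1 is shown because a gained region covered all of it. It is the 250 bases before the 5′ end on the minus strand (chr17:40100590-40100839, RefSeq promoter table, GRCh38.p14), with each CG in capitals, of which there are 20.
NR1D1: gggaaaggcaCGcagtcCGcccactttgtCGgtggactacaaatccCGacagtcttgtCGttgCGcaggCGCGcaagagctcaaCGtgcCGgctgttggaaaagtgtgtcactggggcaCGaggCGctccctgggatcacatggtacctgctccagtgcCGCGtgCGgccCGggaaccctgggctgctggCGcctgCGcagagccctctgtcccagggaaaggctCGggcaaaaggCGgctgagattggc

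Receptors for lipids, retinoids and vitamin D had few listed regions, all away from the 5′ end of the gene record. PPARG, a regulator of fat cell genes that is associated with quiescent stellate cells, had none in the window (chr3:12287368-12434356 for the gene, plus strand), and none of its 31 annotated starts lay within 2500 bp of a gained region. The nearest lost region was 470.8 kb and the nearest gained region 681.7 kb from its 5′ end. PPARD (chr6:35342558-35428191, plus strand), a receptor that drives genes of fatty acid oxidation, had 1 region of each kind in its body. The gained one, chr6:35391868-35393994, was intronic, 49.3 kb past the 5′ end. The lost one, chr6:35423642-35426048, lay 81.1 kb past the 5′ end and contained 1485 bp of exon sequence near the end of the gene, with the 5′ end of FANCE 26.3 kb away.

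VDR (chr12:47841537-47943048, minus strand), the vitamin D receptor, had 1 gained region, chr12:47882070-47883204. It lay 59.8 kb past the 5′ end of the gene record and 21.8 kb past that of the canonical transcript, contained 242 bp of exon sequence and covered 1 of the 8 annotated VDR starts. RXRA (chr9:134317098-134440585, plus strand) encodes the common partner of the PPAR, VDR and RAR proteins in heterodimers. It had 1 gained intronic region, chr9:134406505-134407996, 89.4 kb past the 5′ end, with the highest GC content of the 30 regions (65.0%). The nearest lost region to RXRA lay 138.3 kb from the 5′ end, outside the window. RARB (chr3:24687887-25597932, plus strand), a retinoic acid receptor whose own transcription responds to retinoic acid, had no region in its body or in the window. The nearest lost region was 165.8 kb before its 5′ end and the nearest gained one 739.4 kb away. The canonical start of RARB lay 740.4 kb past the 5′ end of its gene record.

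The RARB promoter nevertheless carries the sequence to which RAR-RXR dimers are known to bind. The repeats were searched with the half-site RGKTCA, where R is A or G and K is G or T. A direct repeat with 5 bases between the half-sites (DR5), in capitals below, was matched 53 bases before the RefSeq start at 25428263 (chr3:25428210-25428226, plus strand). A DR5 was present in 0.074% of 35116 RefSeq promoters (250 bases before each start). No listed region covered it.
RARB, DR5: ggtagGGTTCACCGAAAGTTCActcgc
PPARG had a match to AAAGGTCA, the monomer motif of the NR4A family called NBRE, 186 bases before its first RefSeq start (chr3:12287182-12287189). It was present in 1.05% of the same promoters.
PPARG, NBRE: aaagaAAAGGTCActgtc

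The remaining genes encode receptors that respond to stress signals. NR3C1 (chr5:143277931-143435512, minus strand), the glucocorticoid receptor gene, had 1 intronic region of each kind. The gained one, chr5:143397483-143399365, lay 36.1 kb past the 5′ end of the gene record but 4.32 kb past the canonical start, and 2 of the 16 annotated starts were within 2500 bp of it. It had the lowest GC content of the 30 regions (30.9%). The lost one, chr5:143376438-143377834, lay 57.7 kb past the 5′ end. NR4A1 (chr12:52022832-52059507, plus strand) encodes NUR77, an orphan receptor induced within minutes by many stimuli. Its only region was gained and upstream, chr12:51970952-51973490. It lay 49.3 kb before the 5′ end of the gene record and 77.95 kb before the canonical start. That region lay in an intron of ACVR1B, an activin receptor gene, whose 5′ end was closer (19.3 kb).

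Motifs read by nuclear receptors were then searched on both strands. The half-site AGGTCA was matched in 14 of the 27 gained regions (51.9%) and in all 3 lost ones, against 60.1% of all gained and 70.7% of all lost regions. The matches amounted to 0.669 per kb in the 27 regions and 0.658 per kb in all gained regions. This average concealed a contrast. NR2F2 had 0.284 matches per kb (6 of 17 regions). The gained regions of the other 9 genes, found at 7 of them, had 1.36 per kb (8 of 10 regions). Of the 15 regions of NR2F2 that measured 2000 bp, 6 had the half-site, against 71.5% of the 298 gained regions of that width, which include them. The contrast was uneven among those genes. At NR1D1 the intronic gained region alone held 6 half-site matches, and its other gained regions held 4, 2 and 1. The single gained regions of PPARD and NR4A1 held 4 each, that of RXRA 2 and that of NR3C1 1. Those of NR2F1 and VDR had no match. These differences were not tested, since neighbouring regions are not independent.

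Longer sites were rare. NBRE, which contains the half-site, was matched in 6 of the 27 gained regions (22.2%), against 7.78% of all gained regions, or at 0.122 and 0.0505 matches per kb. All repeats were searched with the half-site RGKTCA, which is looser than AGGTCA. The DR1 repeat, known for NR2F and PPAR-RXR dimers, and the DR5 repeat were matched in none of the 30 regions. Among all gained regions they were present in 0.828% and 0.331%. The DR3 repeat of VDR-RXR and the glucocorticoid response element (GRE) had 1 match each, at NR4A1 and at NR1D1. Their shares among all gained regions were 0.442% and 0.938%. These matches, where outside annotated UTRs, are shown 5′ to 3′ on the matched strand of hg38, with the match in capitals and 10 bases on each side, to let the half-sites be seen in their context.
NR2F2, NBRE, chr15:96336517-96336524, plus strand: gggagccctgAAAGGTCAggtcacaacc
NR3C1, NBRE, chr5:143398812-143398819, minus strand: tctgacccaaAAAGGTCAgaaaatggaa
NR4A1, NBRE, chr12:51972723-51972730, minus strand: atacccctgaAAAGGTCAgaattaccat
NR4A1, DR3, chr12:51971847-51971861, plus strand: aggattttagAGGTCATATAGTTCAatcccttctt
NR1D1, NBRE, chr17:40098970-40098977, plus strand: gaaggccatgAAAGGTCAggaatggctc
NR1D1, NBRE, chr17:40021290-40021297, plus strand: gtcgctagctAAAGGTCAcagcacttgt
NR1D1, GRE, chr17:40021617-40021631, plus strand: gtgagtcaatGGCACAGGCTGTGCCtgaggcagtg
Each match is a string of letters and not evidence of binding.

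To place the 10 genes in their family, the 48 human nuclear receptor genes were examined by the same rule. A gained region was found at 21 of them (43.8%) and a lost region at 12, against 30.5% and 21.6% of protein-coding genes. Without the 10 genes, the shares were 34.2% and 23.7% of the remaining 38. Within 2500 bp of the 5′ end, 5 of the 48 genes had a gained region (10.4%) and none had a lost one, against 6.39% and 2.02% of protein-coding genes. Besides NR2F2, NR2F1 and NR1D1, these were NR1D2, which encodes REV-ERBβ, and ESRRA, the gene of an oestrogen-related receptor that controls mitochondrial genes. Without the 10 genes, the share with a gained region near the 5′ end was thus 2 of 38 (5.26%), against 6.39% of protein-coding genes. Both REV-ERB genes thus had gained regions over their 5′ end, although the nearest protein-coding 5′ end to those at NR1D2 was that of NKIRAS1.

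Most lost regions of the family lay at other receptors. NR2E3, a photoreceptor gene, had 9 lost regions and no gained one, of which 1 overlapped its body and the nearest was 14099 bp from its 5′ end. NR6A1 had 6 lost regions and 1 gained, RARA, a retinoic acid receptor, had 4 lost intragenic regions, the nearest 3642 bp from the 5′ end, and THRB had 3. PPARA, the fatty acid sensor of hepatocytes, had 7 gained regions and no lost one, all outside the gene body, the nearest 60819 bp from its 5′ end. Of the RAR genes, RARA thus had lost regions only and RARB none, whereas RARG had 1 gained region, which lay 62176 bp from its 5′ end and was nearer to that of PFDN5.

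**Figure D4:**
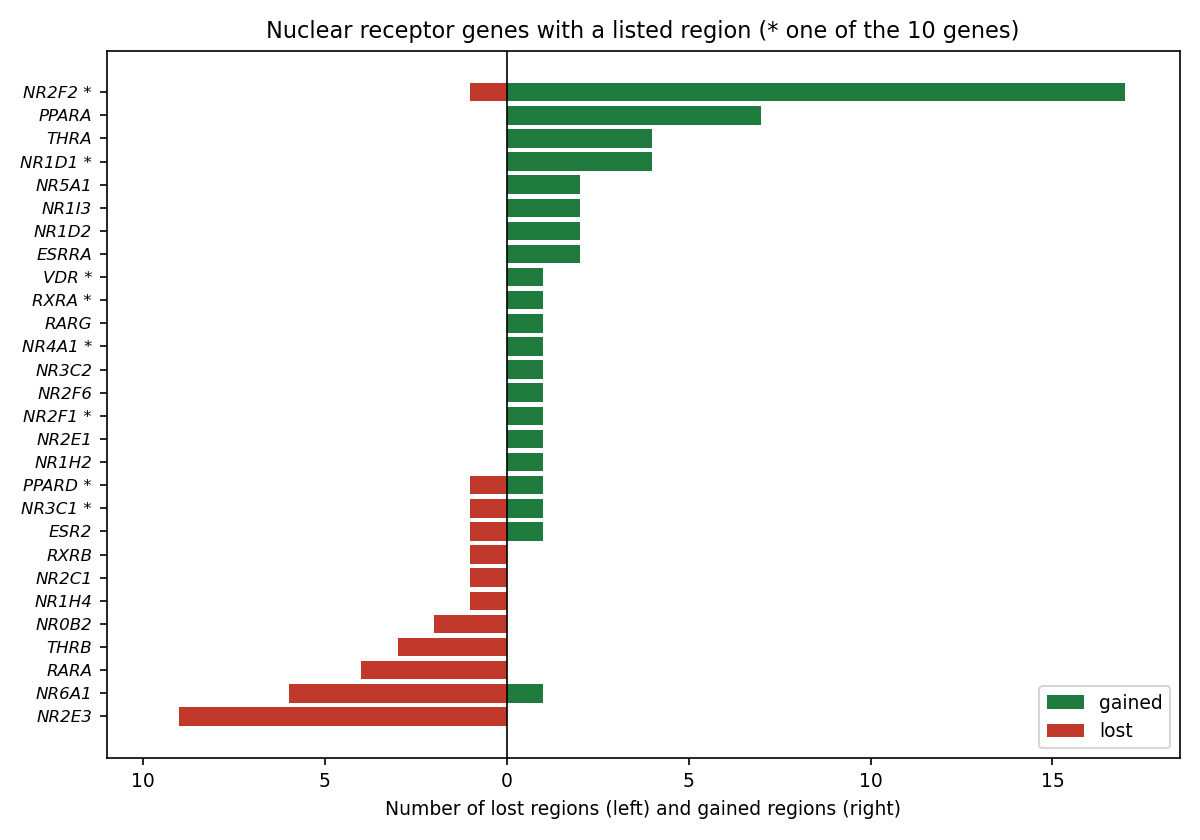
Bars give the number of gained (green, to the right) and lost (red, to the left) regions for each of the 28 nuclear receptor genes with at least 1 listed region. An asterisk marks those that belong to the 10 genes described here, of which PPARG and RARB have no region and are not drawn. NR2F2 has the most gained regions (17), followed by PPARA with 7, and NR2E3 has the most lost regions (9).

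Genes that work with the receptors were counted in the same way. Of 18 coregulator genes, 7 had a gained (38.9%) and 6 a lost region (33.3%), and 4 genes had both, against 30.5%, 21.6% and 7.2% of protein-coding genes. The windows of the coregulators were longer, with a median of 252.9 kb. NCOA6, a coactivator gene, had 4 gained regions and 1 lost. Gained regions covered the 5′ end of NCOA7 and of PPRC1, a relative of the PGC-1 coactivators. Of 34 known target genes, 14 had a gained region (41.2%) and 5 a lost one (14.7%), against 30.5% and 21.6% of protein-coding genes. The counts of genes with a gained and with a lost region were 2 and 2 of 8 for RAR targets. They were 2 and 1 of 5 for REV-ERB targets and 1 and 0 of 3 for VDR targets. They were 5 and 1 of 9 for PPAR targets, where ACADVL had 3 gained regions and CD36 had 3 gained and 1 lost. For glucocorticoid receptor targets they were 4 and 1 of 9. In the latter group MT2A, a metallothionein gene, had 2 gained regions at its 5′ end, and KLF9 had 4 lost regions, 1 of which lay 208 bp from its 5′ end. NFIL3, a target of REV-ERB, had 3 gained regions and 1 lost, and CRABP2, a target of RAR, had the same numbers. None of the regions at ACADVL or CRABP2 lay in the gene body. Those at ACADVL were nearer to the 5′ ends of CTDNEP1, DVL2 and GABARAP, and those at CRABP2 to the 5′ ends of HDGF, NES and PRCC. The median number of regions of either kind was 0 for the coregulators, for the target genes and over all protein-coding genes.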

How the data were processed

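H3K27ac ChIP-seq was performed on 4 control and 4 OSMI-1-treated LX-2 cultures, and the other 8 libraries (input DNA and column purified chromatin) were not used here. According to the methods, the authors aligned reads to hg38, called peaks per library against input with MACS2 (version 2.1.1.20160309 per the labels), divided peaks into bins of about 2000 bp and tested all 8 libraries with MAnorm2. The deposited lists hold chromosome, start and end of regions at an adjusted p of 0.15 per their names, whereas the methods state 0.05. They hold no signal, so read depth is unknown. Wide peaks are cut into bins, which raises region counts in wide domains.

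Starts were converted to count from 1. Genes came from GENCODE release 44, promoters and microRNAs from RefSeq (GRCh38.p14), and other sequences from hg38. Of the 10 genes, 9 were in the promoter table. VDR was not. Regions were assigned, and motifs counted on both strands, with Python 3.11.15 and pandas 2.3.3, checked on planted regions and motifs. The 10 genes and all lists were chosen with earlier results of these data known. No test was made, since the rule uses the same lists. Of the other receptors, coregulators and targets, those with at least 3 regions of one direction or a region within 2500 bp of the 5′ end are named, and RARG in addition, after its count was seen. Some results that this rule or the motif search gave are not reported here.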

Additional observations from a re-analysis of the deposited data

How the results depend on the processing

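No paired analysis was possible because the regions come without a value for each replicate. Leaving out replicates and a stricter threshold could not be run for the same reason, and depth is unknown. Leaving out values that were 0 to begin with, 78 of 110 values under other settings stayed within 1.5 times the main count or, for shares, within its 95% Wilson interval. A window of 200 kb raised the lost regions at the 10 genes from 3 to 13 and the genes with one from 3 to 6, with the gained counts within 1.5 times. With 2500 bp and no gene body, 0 lost regions at 0 genes and 4 gained regions at 3 genes were left, NR2F2 had 1, and the shares of the 48 receptors were 0.0% lost and 10.4% gained. Joining abutting regions left 14 gained regions, 5 of them at NR2F2. Without NR2F2, a setting added after seeing the data, 10 gained regions remained. From the canonical start of NR2F2, 2 lost regions lay within 100 kb instead of 1. In the central 1000 bp, NBRE was matched in 3 of the 27 gained regions instead of 6.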

Other observations

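The AP-1 and TEAD motifs were matched in the gained regions of NR2F2 less often than in gained regions of the same width, and this was not tested. The AP-1 motif TGANTCA was present in 4 of the 15 regions of 2000 bp (26.7%), against 63.4% of the 298 gained regions of 2000 bp, which include them, or at 0.267 and 0.532 matches per kb. The core of the TEAD motif, CATTCC, was present in 8 of the 15 (53.3%), against 71.5%. The ATF4-C/EBP motif TGATGCAA was present in 1 of the 15 (6.67%), against 9.73%, and this count is too small for a comparison. The median CpG ratio of these 15 regions was 0.447, against 0.227 over the 298, and its part in the motif counts was not tested. At the other 9 genes, of which 7 had a gained region, AP-1 was matched in 4 and the TEAD core in 8 of 10 gained regions. The shares over all gained regions of any width were 53.6% and 58.8%.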
